A study of Mus musculus with 6 samples.

Results

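Circular RNAs (circRNAs) of 10 lipid synthesis and adipocyte genes, Acaca, Acacb, Mlxipl, Acly, Fasn, Elovl6, Pparg, Acsl1, Pnpla2 and Lipe, were examined in mouse aortas. Every entry of the deposited circRNA table with one of these genes as its host gene was taken, which gave 33 entries. Entries that share an end and whose starts are 1 base apart were summed, and each sum is called a circle here. This left 30 circles of 8 of the 10 genes, out of 9548 circles and 3981 host genes in the whole table. Acly and Elovl6 had no circle. The aortas came from male ApoE-/- mice on the C57BL/6 background, so apolipoprotein E was missing in both groups. The HFD group (3 aortas) and the chow diet group (3 aortas, called normal diet in the labels) were fed for 12 weeks from 6 weeks of age, and the HFD also contained cholesterol and cholic acid. The labels number the aortas 1 to 3 within each diet and do not say whether a library is 1 animal, so p-values measure the spread between these libraries.

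Fatty acid synthesis starts when acetyl-CoA carboxylase turns acetyl-CoA into malonyl-CoA, which fatty acid synthase then lengthens into palmitate. The pathway is switched on by the carbohydrate-sensing factor ChREBP, which Mlxipl encodes, while PPARγ is the master regulator of fat cell differentiation and fat cells release their stored triglyceride through the lipases of Pnpla2 and Lipe. Fat cells surround the aorta in the perivascular fat. A circRNA is made when the end of an exon is joined back to the start of the same or an earlier exon, and reads across this back-splice junction count it.

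The HFD aortas held from 4694 to 5621 back-spliced reads and the chow diet aortas from 7142 to 7585. The 30 lipid gene circles held 140 of the 37393 reads, and 17 of them rested on 1 read over all aortas. Reads came from a single aorta for 23 of the 30 circles (76.7%), against 72.3% of all circles. A count of 0 still allows 3 reads, which is 5.34 to 6.39 per 10000 back-spliced reads in the HFD aortas and 3.96 to 4.20 in the chow diet aortas. These floors, and all intervals below, cover counting error only. Coordinates match exons of GENCODE vM21, and are given on GRCm38.

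Most of the signal came from 2 circles, one of Acaca and one of Mlxipl, which together held 88 of the 140 reads (62.9%). The Acaca circle (circRNA6277 with circRNA2621, chr11:84193079-84195687, plus strand) joins the end of exon 3 to the start of exon 2 of a transcript with 56 exons. It is 297 nt long, of which 73 nt are 5′ untranslated and 224 nt are coding. The annotated start codon begins at base 74 of the circle, and its frame meets no stop codon on the way round the circle. The Mlxipl circle (circRNA5410 with circRNA2453, chr5:135121506-135124017, plus strand) joins the end of exon 7 to the start of exon 3 of 17 exons and holds 501 nt, all coding. The introns before and after the circle are 19523 and 18470 nt long for Acaca and 7772 and 4495 nt long for Mlxipl. The medians over all circles matched to exon ends are 7199 nt before and 5864 nt after. The junctions that identify both circles are shown with the last 15 bases before the back-splice in lower case and the first 15 bases after it in capitals.
Acaca exons 2 to 3: ggcctttcacatgagTTCTTTTTGGAGGCG
Mlxipl exons 3 to 7: tcatggagatatcagATGTGCAACGGAGGA

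The coding part of the Acaca circle is the start of the acetyl-CoA carboxylase reading frame, shown with its start codon in capitals.
Acaca coding part: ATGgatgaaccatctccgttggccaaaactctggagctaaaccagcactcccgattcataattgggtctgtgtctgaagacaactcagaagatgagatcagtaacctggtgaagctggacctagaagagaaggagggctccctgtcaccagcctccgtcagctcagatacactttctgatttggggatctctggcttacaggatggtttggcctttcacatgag

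Pparg had 6 circles and no main one. Of these, 4 start at the same base, chr6:115439840 on the plus strand, the start of exon 3 of the Pparg transcript ENSMUST00000171644. They end with exon 4, 5, 6 or 7 of this transcript, at 115441661, 115451082, 115463285 and 115473311. The start codon of this transcript begins at base 9 of each. Their junctions share the 15 bases after the back-splice, in capitals, and differ in the bases before it.
circRNA1326, exons 3 to 4: tgtgaaggatgcaagAAATTACCATGGTTG
circRNA5319, exons 3 to 5: ggatgtctcacaatgAAATTACCATGGTTG
mmu_circ_0012961, exons 3 to 6: acaacggacaaatcaAAATTACCATGGTTG
circRNA3669, exons 3 to 7: ttattctcagtggagAAATTACCATGGTTG

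**Figure D1:**
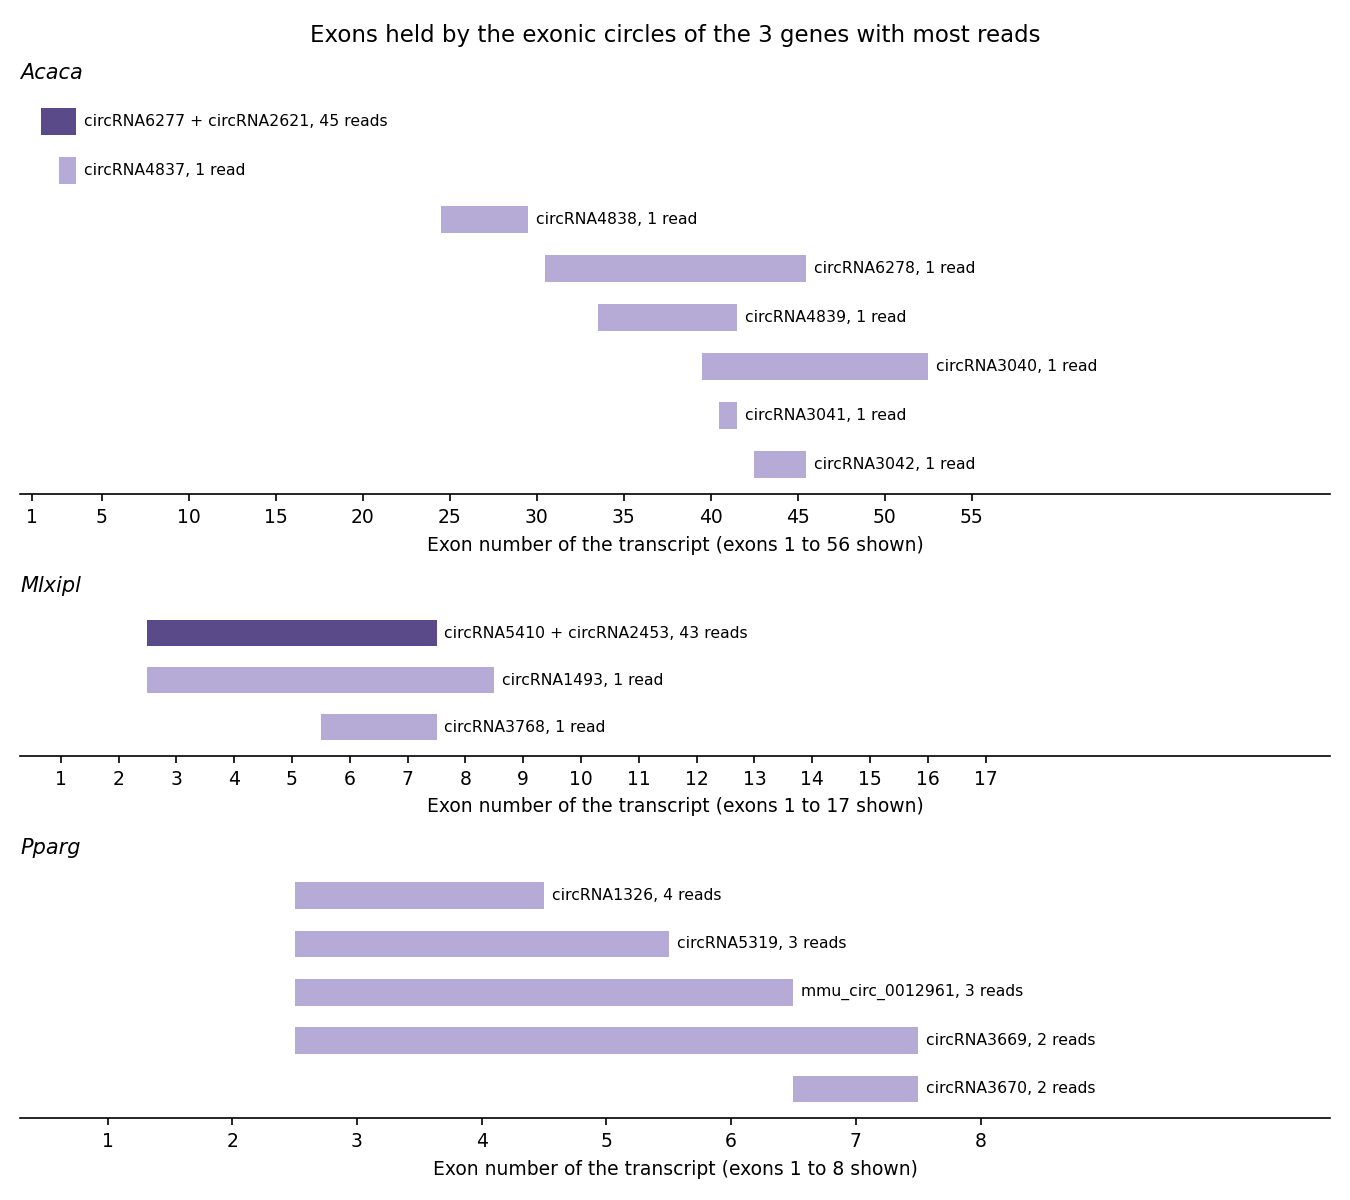
Exons held by each exonic circle of Acaca, Mlxipl and Pparg that matched exon ends; the x axis is the exon number of the transcript, each bar is 1 circle, and its reads over the 6 aortas stand beside it. The 2 dark bars are the circles with at least 10 reads, 45 for Acaca and 43 for Mlxipl, and 4 of the 5 Pparg bars share their first exon.

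Of the 25 exonic lipid gene circles, 22 (88.0%) matched annotated exon ends, against 97.3% of all exonic circles. The matched circles held a median of 3 exons and 476 nt, against 4 exons and 554 nt over all circles. A single exon made up 5 of the 22 (22.7%), against 5.17% of all matched circles. Only 1 of the 33 entries carried a name of the mmu_circ catalogue, mmu_circ_0012961 of Pparg, while 27.1% of all entries did. The single circle listed under Pnpla2, circRNA4509 (chr7:141458739-141459278), lies on the minus strand, opposite to the gene, and its ends fall in intron 5 and in exon 7 of 8 exons. circRNA9084, listed under Acsl1 (chr8:46534980-46535191), is also on the opposite strand and lies within the 3′ UTR in exon 21. Of all entries with a host gene, 58 of 9923 (0.585%) lie opposite to it. The library kit marks strand, but whether the counting used it is not given in the sources used here, so a share of these reads cannot be assigned to either strand.

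The comparison of HFD with chow diet asked whether these circles differ in number between atherosclerotic and control aortas. Acaca was the lipid gene that stood lower on the HFD at the criteria of the study. It had 2.44 times fewer reads per effective library size, which is the library size after TMM normalization. Pparg also had fewer raw reads in every HFD aorta than in any chow diet aorta but did not meet the criteria. Mlxipl overlapped between the diets, and the other 5 genes with a circle had at most 3 reads in any aorta. The criteria were an absolute log2 fold change above 1 together with an unadjusted p under 0.05, from a quasi-likelihood test of edgeR fitted on all circles or host genes with reads in at least 2 aortas. Reads summed per host gene met them for 1 of the 7 lipid genes tested, where 4.46% of all 2240 host genes did, and 2.77% were called lower on the HFD. Of the 7, 0 reached an adjusted p under 0.05, and at an unadjusted p under 0.05 there was 1 with edgeR and 0 with DESeq2. In such bulk libraries, fewer cells of a type and less RNA per cell cannot be told apart.

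Acaca encodes acetyl-CoA carboxylase 1, the enzyme that commits acetyl-CoA to fatty acid synthesis. Its 9 circles gave 6, 4 and 3 reads in HFD 1, 2 and 3, against 10, 21 and 9 in chow diet 1, 2 and 3 (all values in this order). In raw reads the highest HFD aorta lay below the lowest chow diet aorta, and chow diet 2 stood above all others. Scaled to the mean effective library size, this was 4.97 ± 2.06 against 12.2 ± 6.70 reads (SD, n = 3 each, two-sided exact permutation test, p = 0.1). This p is the lowest possible with 3 aortas against 3. The diets did not overlap on this scale either, a separation towards lower reads on the HFD that 5.89% of all host genes tested showed. Per back-spliced read they overlapped, since HFD 1 (6 of 4694) lay above chow diet 3 (9 of 7476). The log2 fold change was -1.28 (standard error 0.61), with an unadjusted p of 0.037 and a Benjamini-Hochberg adjusted p of 0.67 in edgeR's test. The ratio of chow diet to HFD reads per effective library size was 2.44, with a 95% exact interval of 1.28 to 4.98. Without chow diet 2, the log2 fold change was -0.77 (unadjusted p = 0.23 in edgeR's test). By number of back-spliced reads, Acaca was 98th of the 3981 host genes.

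The exon 2 to 3 circle held 45 of the 53 Acaca reads (84.9%). It gave 5, 4 and 3 HFD reads against 10, 17 and 6 chow diet reads. The raw reads of the diets did not overlap. Scaled to effective library size they did, at 4.65 ± 1.38 against 9.86 ± 5.31 (SD, n = 3 each, exact permutation test, p = 0.2). Its log2 fold change was -1.07 (standard error 0.68, unadjusted p = 0.11, adjusted p = 0.61 in edgeR's test). The other 8 Acaca circles had 1 read each, 7 of them in a chow diet aorta and circRNA6278 in HFD 1. They lie mostly between exon 25 and exon 52, and include 1 intronic circle, ciRNA193, which spans the 1543 nt of intron 4.

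Mlxipl encodes ChREBP, a transcription factor that switches on Acaca, Fasn and other lipid synthesis genes when glucose is plentiful. Its circles gave 4, 2 and 12 HFD reads against 13, 13 and 6 chow diet reads. HFD 3 lay with the chow diet aortas, and chow diet 3 lay close to HFD 1. The scaled mean was 6.90 ± 6.09 for HFD against 9.68 ± 3.94 for chow diet (SD, n = 3 each; exact permutation test, p = 0.6). The log2 fold change of -0.49 had a standard error of 0.60 (adjusted p = 0.95 in edgeR's test). HFD 3 set much of this value, which was -1.40 without that aorta and 0.061 without HFD 2. The exon 3 to 7 circle carried 43 of the 50 reads, 4, 2 and 10 against 9, 12 and 6 (log2 fold change -0.35, standard error 0.66, adjusted p = 0.95 in edgeR's test). An intronic circle, ciRNA142, covers 352 nt of intron 5 and had 2 reads in HFD 3 and 3 reads in chow diet 1. The 2 other Mlxipl circles had 1 read each.

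Pparg encodes PPARγ, the nuclear receptor that drives fat cell differentiation and is also present in macrophages. Its circles gave 0, 2 and 2 HFD reads against 3, 4 and 5 chow diet reads. All chow diet aortas lay above all HFD aortas in raw reads. The same held after scaling to effective library size, with 1.46 ± 1.27 against 3.58 ± 0.83 reads (SD, n = 3 each, exact permutation test, p = 0.1). Such a separation towards lower reads on the HFD was found for 5.89% of all host genes tested. Per back-spliced read the diets overlapped, since HFD 3 (2 of 4875) lay above chow diet 1 (3 of 7585). The log2 fold change was -1.20, with a standard error of 1.19 and an adjusted p of 0.94 in edgeR's test. The ratio of chow diet to HFD reads per effective library size was 2.38, with an interval of 0.72 to 10.1 that includes no difference.

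The separation of the Pparg sums was spread over different circles in different aortas. circRNA1326 had 2 reads in chow diet 1 and 2 in chow diet 3, circRNA5319 had 3 reads in chow diet 3, and circRNA3669 and the single-exon circRNA3670 had 2 reads each in chow diet 2. mmu_circ_0012961 had 2 reads in HFD 3 and 1 in chow diet 1. The remaining circle, circRNA8079 (chr6:115383680-115385633), lies upstream of the coding exons and had 2 reads in HFD 2. The 4 circles with a shared start were seen with 2 reads in the HFD aortas and 10 in the chow diet aortas.

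**Figure D2:**
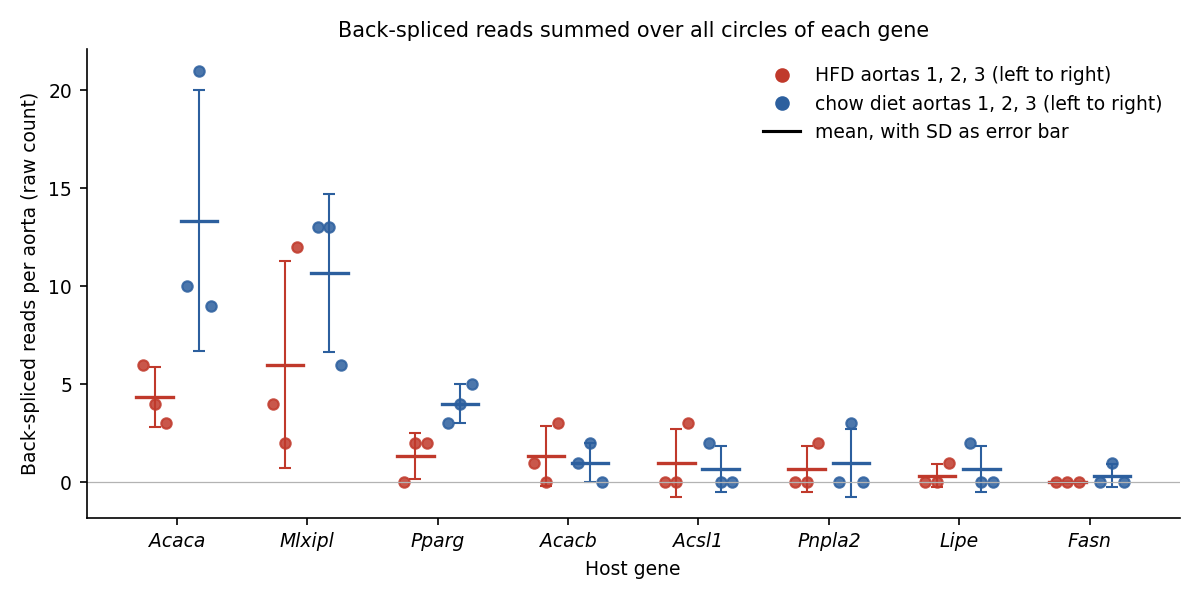
Back-spliced reads of all circles of each lipid gene (y axis, raw count) in the 3 HFD aortas (red) and 3 chow diet aortas (blue), with the mean as a line and the SD as the error bar. In these raw counts, not scaled for the smaller HFD libraries, the diets do not overlap for Acaca (3 to 6 against 9 to 21 reads) and Pparg (0 to 2 against 3 to 5 reads). They overlap for Mlxipl, and no aorta exceeds 3 reads for the other 5 genes. As a share of back-spliced reads, the diets overlap for Acaca and Pparg too.

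The remaining genes gave too few reads for a fold change, since no aorta had more than the 3 reads of the floor. Acacb, which encodes the mitochondrial acetyl-CoA carboxylase whose malonyl-CoA restrains fatty acid oxidation, gave 1, 0 and 3 HFD reads against 1, 2 and 0 chow diet reads. Its main circle covers exons 17 to 19 (chr5:114203390-114207370, 432 nt) and had 5 reads. Acsl1, which activates long-chain fatty acids, had 3 reads in HFD 3 and 2 in chow diet 1, of which 2 in HFD 3 were the circle on the opposite strand. Fasn, the fatty acid synthase gene, had 1 read in chow diet 2, for a circle of exon 37 alone (246 nt).

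The lipolytic genes were as rare. Pnpla2, which encodes the first lipase of triglyceride breakdown, had 2 reads in HFD 3 and 3 in chow diet 2, all from the circle on the opposite strand. Lipe, which encodes hormone-sensitive lipase, had 1 read in HFD 3 and 2 in chow diet 1, the latter from a circle of exons 3 to 6 (715 nt). In order of reads over the 6 aortas, Acaca (53) and Mlxipl (50) were followed by Pparg (16), Acacb (7), Acsl1 and Pnpla2 (5 each), Lipe (3) and Fasn (1). Acaca and Mlxipl overlapped within both diets, Pparg lay below Mlxipl in every chow diet aorta, and the genes after Pparg overlapped among themselves.

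No circle of the lipid genes met the criteria among the 7 tested with edgeR, where 3.40% of all 2646 circles did and 2.34% were called lower on the HFD. None of the 7 had an unadjusted p under 0.05, and DESeq2 called none either. The fitted log2 fold changes of the 7 circles had a median of -0.17, against -0.13 over all circles tested. For the 7 host genes the median was -0.49, against -0.17 over all host genes. Both medians rest largely on values with too few reads for a fold change, since 5 of the 7 circles and 4 of the 7 genes had at most 3 reads in any aorta. Circles seen on the chow diet alone numbered 18 of 30 (60.0%), against 46.2% of all circles. On the HFD alone, 6 were seen (20.0%, against 32.5%). Per aorta, 4, 3 and 9 lipid gene circles were seen with the HFD, against 10, 13 and 7 with the chow diet.

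The scaling moved all genes together. With TMM the median host gene had a log2 fold change of -0.17 and 62.0% of the calls were lower on the HFD. With library size alone the median was 0.02 and 47.2% of the calls were lower. Among circles, 68.9% of the calls were lower with TMM and 50.7% with library size alone. Relative to the median host gene, Acaca was lower by a log2 difference of -1.11 with TMM and -1.10 with library size alone, and Pparg was lower by -1.04 under both. With library size alone, Acaca had an unadjusted p of 0.079 in edgeR's test and did not meet the criteria.

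Summing the entries 1 base apart decided how the 2 main circles compared. The table holds 475 such pairs, each with one entry named by gene symbol and one by Ensembl ID, and 3 pairs belong to the lipid genes. Over the whole table, both entries had reads in the same aorta in 9 of 1672 cases (0.538%), and for the lipid genes in 0 of 15. All 7896 exonic entries named by symbol start at an exon start, while 953 of the 1096 named by Ensembl ID (87.0%) start 1 base after it.

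For Acaca, circRNA6277 held the 5 reads of HFD 1, and circRNA2621 held the reads of the other aortas. Taken as deposited, circRNA2621 gave 0, 4 and 3 HFD reads against 10, 17 and 6 chow diet reads, and met the criteria (log2 fold change -1.89, standard error 0.86, unadjusted p = 0.029, adjusted p = 0.58 in edgeR's test). For Mlxipl, the 2 entries had fitted changes of opposite sign. circRNA5410 gave 4, 2 and 10 HFD reads against 0, 0 and 6 chow diet reads, with a fitted log2 fold change of 1.73 (unadjusted p = 0.10 in edgeR's test). circRNA2453 gave no HFD read against 9, 12 and 0 chow diet reads, and met the criteria with an unadjusted p of 0.00078 (adjusted p = 0.30 in edgeR's test). The sum of both Mlxipl entries did not meet them. For Acacb, circRNA1469 had 1 read each in chow diet 1 and 2, and circRNA9034 had the 3 reads of HFD 3. With entries as deposited, 4.06% of all 2564 entries tested met the criteria.

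**Figure D3:**
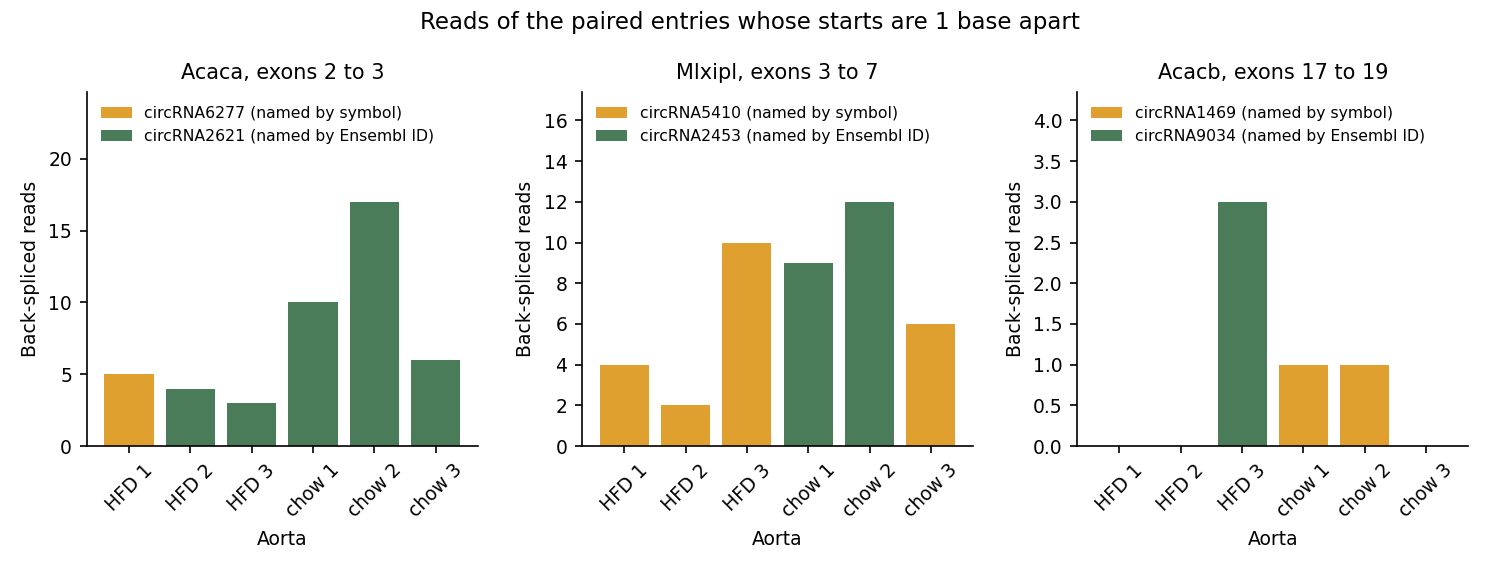
Back-spliced reads (y axis) of the 3 pairs of entries whose starts are 1 base apart, by aorta, with the entry named by symbol in orange and the entry named by Ensembl ID in green. Every bar has a single colour, so each aorta's reads sit in one entry of the pair, and for Mlxipl all 3 HFD bars are orange while 2 of the 3 chow diet bars are green.

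The Acaca result depended on the analysis. Over 16 alternatives, the log2 fold change of its gene sum ranged from -1.51 to -0.77, with unadjusted p from 0.026 to 0.23 and adjusted p from 0.58 to 1.00 (edgeR, DESeq2 or limma), and the criteria were met in 9. They were not met with DESeq2, with library size alone, with at least 10 reads per gene, with the replicate block, or without HFD 2, HFD 3 or chow diet 2. The Pparg sum ranged from -1.56 to -0.58 and met the criteria under none of the 16. The smallest change of Pparg came without HFD 1, the HFD aorta without a Pparg read.

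**Figure D4:**
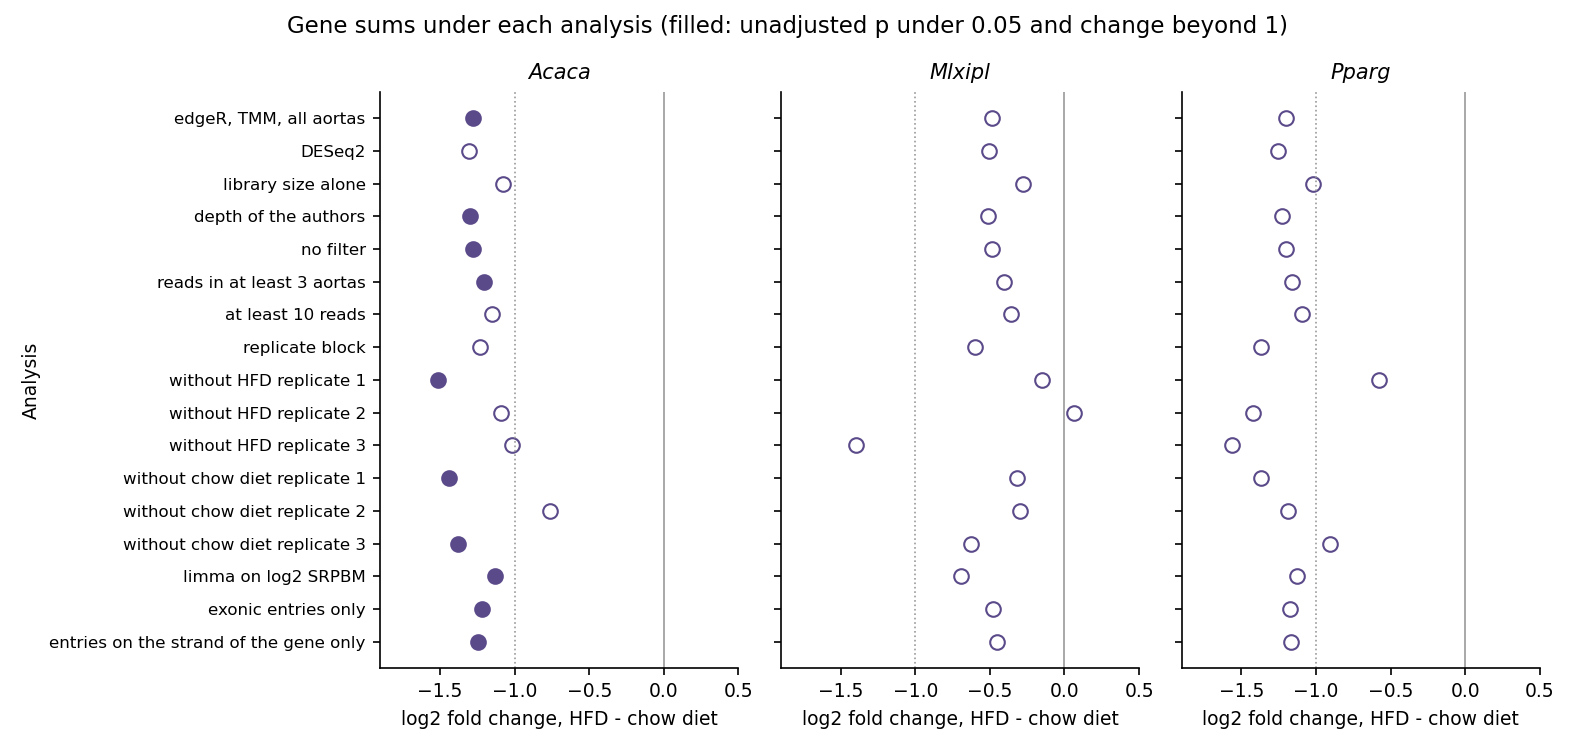
Log2 fold change of the gene sums of Acaca, Mlxipl and Pparg (x axis, HFD minus chow diet) under each analysis (rows), with filled points where the criteria were met. All Acaca points lie below 0 and 10 of 17 are filled, including the TMM fit on all aortas, Mlxipl ranges from -1.40 to 0.061, and no Pparg point is filled.

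Taken as a share of all back-spliced reads, the 8 genes did not separate the diets. Their share was 23.4, 14.2 and 53.3 reads per 10000 on the HFD, against 40.9, 61.6 and 26.8. The 95% Wilson interval was 36.4 to 78.0 in HFD 3 and 7.21 to 28.1 in HFD 2, and these do not overlap. In the chow diet group the interval was 45.9 to 82.6 in chow diet 2 and 17.3 to 41.3 in chow diet 3, so both diets varied beyond counting error. The mean share was 30.3 ± 20.4 for HFD against 43.1 ± 17.5 for chow diet (SD, n = 3 each), a difference of -12.7 that was smaller than the SD of either diet on this scale. Scaled to effective library size the difference was -19.3, and with the SRPBM of the authors it was -19.1. The difference was -24.2 without HFD 3 and -3.48 without chow diet 2. Without Acaca, the shares were 21.6 ± 22.2 and 24.9 ± 9.08, and without Acaca and Mlxipl they were 9.42 ± 11.4 and 10.4 ± 3.66. HFD 3 held the most reads of any HFD aorta for Mlxipl, Acacb, Acsl1, Pnpla2 and Lipe, but the fewest for Acaca. The same aorta held 9 reads of Ttn, from the skeletal muscle markers counted below. Ttn had 3 reads in chow diet 1 and none in HFD 1, HFD 2, chow diet 2 or chow diet 3. The part of this signal in the lipid gene values was not tested.

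Genes that define fat cells were set beside them. Of 24 such genes, 10 had a circle, and Adipoq, Plin1, Cidec, Fabp4, Lep, Retn, Cfd, Adrb3 and Cebpa, among 14 in all, had none. The list includes Pparg and Lipe. A gene without a circle can still be expressed, and mRNA was not analysed here. The summed reads of the list were 15 to 23 in the HFD aortas and 20 to 29 in the chow diet aortas, or 36.0 ± 10.4 against 32.0 ± 6.30 per 10000 (SD, n = 3 each), and the diets overlapped. Most of them came from Cd36 and Ghr. Cd36, a fatty acid uptake and scavenger receptor shared with macrophages and endothelium, gave 4, 11 and 14 HFD reads against 8, 7 and 12 chow diet reads. Ghr, the growth hormone receptor, gave 7, 1 and 6 against 3, 3 and 6. Of the 7 genes tested, 1 met the criteria, Prdm16, a regulator of brown and beige fat, with 1, 0 and 0 against 4, 5 and 5 reads (log2 fold change -3.09, adjusted p = 0.67 in edgeR's test). Over all host genes, 4.46% met the criteria and 2.77% were called lower on the HFD. Ucp1, the brown fat uncoupling protein, had 1 read, in HFD 1, and is named here after its value was seen.

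Markers of the smooth muscle of the vessel wall were also counted. Of 14 smooth muscle markers, 10 had a circle, with 15 to 27 reads per HFD aorta and 51 to 75 per chow diet aorta. Their share was 41.9 ± 9.65 against 88.9 ± 15.4 per 10000 (SD, n = 3 each) without overlap, and Tagln, Cnn1, Des and Actg2 had no circle. Itga8 held 139 of the 262 reads, and without it the shares were 18.5 to 32.0 against 32.2 to 45.5 per 10000, which lie next to each other. Itga8, an integrin of smooth muscle, met the criteria with 7, 14 and 6 against 43, 28 and 41 reads (log2 fold change -1.71, adjusted p = 0.0082 in edgeR's test), and was the 1 of 7 tested that did, where 2.77% of all host genes were called lower on the HFD. Myocd had 11, 9 and 6 against 17, 16 and 21 reads (log2 fold change -0.71, adjusted p = 0.71 in edgeR's test). In raw reads, the smooth muscle markers, Acaca and Pparg were thus all lower in each HFD aorta than in any chow diet aorta. As a share of back-spliced reads, the smooth muscle markers stayed apart while Acaca and Pparg overlapped between the diets. The part of the smooth muscle difference in the lipid gene values was not tested.

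Circles of other cell types were few. Of 20 leukocyte markers, 8 had a circle, with 13 to 23 reads on the HFD and 16 to 21 on the chow diet, led by Mertk and Adgre1. Their share was 32.4 ± 7.36 against 25.2 ± 2.85 per 10000 (SD, n = 3 each) with overlap, and 0 of 5 tested met the criteria. Endothelial markers (5 of 11 with a circle, led by Pecam1 and Tek, 4 to 8 against 2 to 7 reads) gave 0 of 4, with a share of 10.7 ± 5.01 against 5.37 ± 3.50 per 10000 that also overlapped. Skeletal muscle markers had 0 to 9 against 0 to 5 reads, from Ttn, Mybpc1 and Ryr1 of 15 genes, and the single cardiac gene with a circle of 7, Ryr2, had 0 to 2 against 2 to 4, with 0 of 1 gene meeting the criteria in each list. Fibroblast markers had 1 to 5 against 0 to 1 reads, from 3 of 8 genes, a share of 2.13 to 10.3 against 0 to 1.34 per 10000, where a count of 0 still allows up to 4.20 in the chow diet aortas. Of these, 1 of 2 tested, Col3a1, met the criteria with 0, 5 and 1 HFD reads against no chow diet read, where 1.70% of all host genes were called higher on the HFD.

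**Figure D5:**
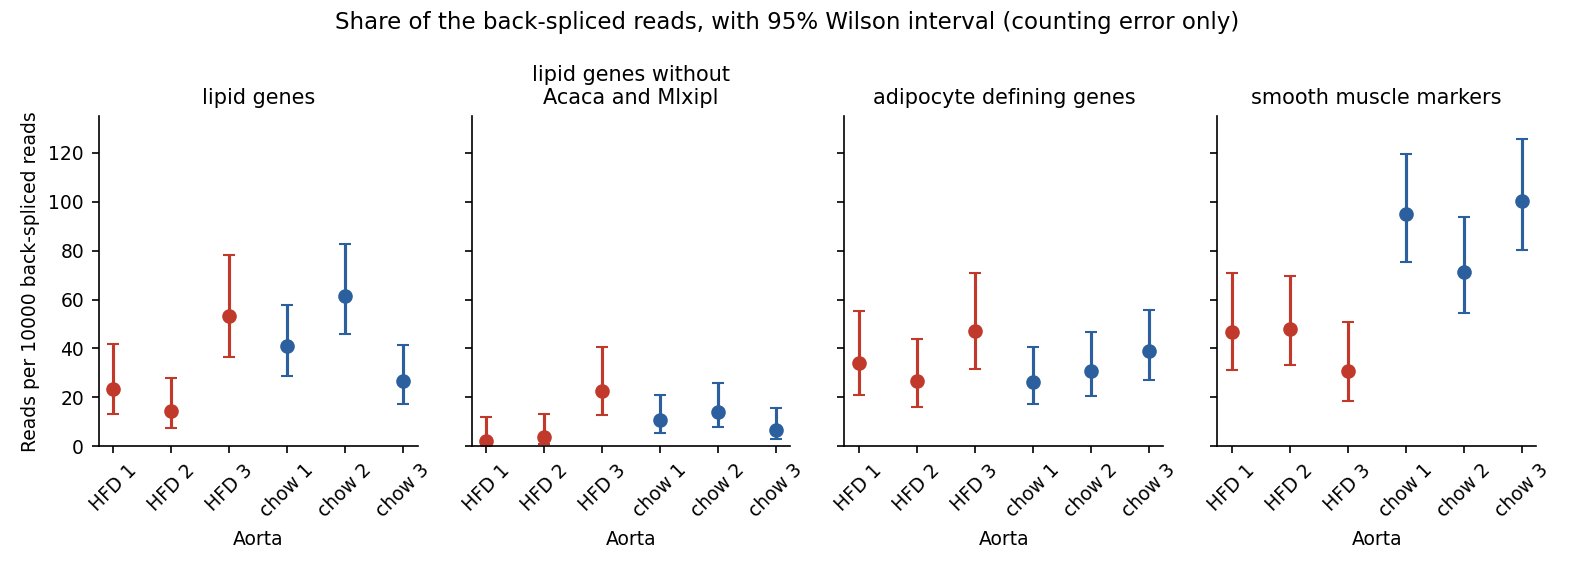
Reads per 10000 back-spliced reads (y axis) in each HFD (red) and chow diet (blue) aorta for the 8 lipid genes, the same without Acaca and Mlxipl, the fat cell defining genes and the smooth muscle markers, with 95% Wilson intervals as error bars. The lipid genes and the fat cell genes overlap between the diets, with HFD 3 the highest HFD aorta in both, while the smooth muscle markers lie at 30.8 to 48.0 for HFD against 71.4 to 100.3 for chow diet.

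Other genes of the lipid pathway were examined in the same way. Of 41 other lipid synthesis genes, 14 had a circle and 7 were tested, and none met the criteria. Their median log2 fold change of -1.02 is no estimate of a fold, since the 7 genes had 2 to 7 reads each over the 6 aortas. Lpin1, a phosphatidate phosphatase of triglyceride synthesis, gave 0, 4 and 0 HFD reads against 1, 0 and 2 chow diet reads. Scd1, the stearoyl-CoA desaturase gene, gave none against 0, 1 and 5. Of 22 fatty acid oxidation genes, 9 had a circle and 0 of 4 tested met the criteria (median -0.21, with at most 7 reads over the 6 aortas for 3 of the 4). The most reads there came from Etfa, an electron carrier subunit, with 1, 5 and 1 against 3, 4 and 3, and from Acacb.

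Of 27 other lipolysis and fat storage genes, 12 had a circle and 8 were tested. The criteria were met by 1 of the 8, where 4.46% of all host genes met them. The median log2 fold change of the 8, -0.58 against -0.17 over all host genes, is no estimate of a fold. All of the 8 except Cd36 and Pnpla3 had 2 to 7 reads over the 6 aortas. The gene that met the criteria was Pnpla3, a lipid droplet protein related to the lipase of Pnpla2. It gave 0, 0 and 6 HFD reads against 10, 11 and 5 chow diet reads, with a fitted log2 fold change of -1.73 (unadjusted p = 0.035, adjusted p = 0.67 in edgeR's test). Its HFD reads were all in HFD 3, as were most HFD reads of Mlxipl, and the diets overlapped by 1 read.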

How the data were processed

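Libraries of ApoE-/- mouse aortas, 3 HFD and 3 chow diet, were sequenced. Cutadapt served the authors for trimming, TopHat-Fusion for finding back-splices among unmapped reads, and CIRCexplorer and CIRI for assembling circRNAs. Versions and the genome build are not given in the sources used here. The labels and the methods of the study name RNase R for isolating circRNA, and the methods also name rRNA depletion for the sequencing libraries. The deposited counts are back-spliced reads per circRNA and aorta, not normalized. The deposited signal, SRPBM, is the count divided by a depth per library, and was used for the alternatives only. The columns of fold changes and p-values of the authors were not used.

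Entries with 1 chromosome, strand and end and starts 1 base apart were summed. Counts were TMM-normalized and tested with edgeR 4.0.16 in R 4.3.3 (quasi-likelihood, glmQLFit) over all circles, or host genes, with reads in at least 2 aortas, without a block, with Benjamini-Hochberg adjustment over everything tested. Models were tested on simulated data. Normalized reads are counts over effective library size, times its mean. Host genes given as Ensembl IDs were named from a table, which matched all 1224 entries. Junctions and coding bases were read from GENCODE vM21 transcripts. Alternatives were DESeq2 1.42.0, library size alone, the depth of the authors, limma 3.58.1 on log2 of SRPBM plus 13.6 (its smallest value above 0), other filters, a replicate block, each aorta left out, entries as deposited, and exonic entries only. Entries on the strand of the gene only, and smooth muscle markers without Itga8, were added after seeing the data. Within a diet, chi-square over its degrees of freedom was 1.96 to 2.91, above sampling noise. The genes, the lists and the tests were chosen with earlier results of these data known. All lipid genes are named, circles with at least 10 reads are given in every aorta, and of the other lists those genes are named that met the criteria or were among the 2 with most reads.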

Additional observations from a re-analysis of the deposited data

How the results depend on the processing

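The number of lipid genes whose summed reads met the criteria was 1 and became 0 with DESeq2, library size alone, at least 10 reads, or the replicate block, and was 0 to 1 with an aorta left out. For the circles of the lipid genes the number was 0, and became 2 with entries as deposited and 0 to 1 with an aorta left out, the 1 being the Acaca exon 2 to 3 circle without chow diet 3. Over all circles, the 90 calls became 26 with DESeq2, 48 with at least 10 reads and 30 with the replicate block, and 47 to 111 with an aorta left out. Over all host genes, the 100 calls became 39, 49 and 41, and 49 to 118. Same-numbered aortas did not deviate together over the 200 circles with most reads (correlations -0.06, -0.05 and -0.05). A weak pairing, or one in other circles, could be missed there. With the block Acaca was at -1.23 (unadjusted p = 0.055 in edgeR's test). The summed share kept its direction, at -24.2 to -3.48 per 10000 with an aorta left out. Log2 fold changes changed sign for Acacb without HFD 3, Mlxipl without HFD 2, Pnpla2 and Lipe without HFD 1 or HFD 2, and Acsl1 on the strand of the gene only (-0.49). With an aorta left out, Acacb ranged from -0.50 to 1.54, Mlxipl from -1.40 to 0.061, Pnpla2 from -0.75 to 0.42 and Lipe from -1.01 to 0.058. Except for Mlxipl, these genes have at most 3 reads in any aorta, so their values are no estimate of a fold. Acacb, Acsl1, Pnpla2 and Lipe could not be fitted under the alternatives that took their reads below the filter. Causes were not tested beyond the fewer reads and aortas that each alternative leaves. Of the 30 circles, 28 have under 10 reads over the 6 aortas, which limits what can be said of each.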
